A study of Mus musculus with 26 samples.

Results

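The 10 genes described here are the early growth response factors Egr1, Egr2 and Egr3, their corepressors Nab1 and Nab2, and 5 other immediate early regulators, Ier2, Ier3, Ier5, Btg2 and Phlda1. They were followed in Ba/F3/gp130 cells, a murine pro-B cell line that needs interleukin-3 or Hyper-IL-6 (a fusion of IL-6 with its soluble receptor) to grow. Members were taken as every probe set paired with exactly 1 of the 10 symbols. That rule found 10 probe sets, 1 for each gene, among 35556 on the array and 19938 genes tested. RNA was measured on 26 Affymetrix Mouse Gene arrays. All cells carried gp130, the signal chain of the IL-6 family, were washed 4 times and were starved without serum for 4 h. Natural receptor cells carried IL-10R2 and IL-22Rα1, the chains of the IL-22 receptor. They were left untreated (n = 4) or given IL-22 at 100 ng/ml (n = 4). Synthetic receptor cells carried mCherryVHHIL-10R2 and GFPVHHIL-22Rα1, receptor chains joined to nanobodies (VHH) against mCherry and GFP. They were left untreated (n = 6), treated with GFP-mCherry, 1 protein recognised by the nanobodies of both chains (n = 6), or treated with mCherry-Fc, a dimer recognised by the IL-10R2 chain alone (n = 6). Both proteins were used at 100 ng/ml, and stimulation lasted 2 h. No group received a control protein, and the labels do not say whether the arrays of a group came from separate cultures. The p-values therefore measure only the spread between these arrays. The labels do not say whether either line was a single clone or a pool.

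Immediate early genes are transcribed within minutes of a signal without new protein synthesis, commonly through ERK kinases acting on serum response factor, and many fall again within hours. The EGR proteins are zinc finger factors that bind GC-rich sites, and NAB1 and NAB2 bind to them and restrain their activity. In lymphocytes EGR2 and EGR3 are known as brakes on activation, while IER3, BTG2 and PHLDA1 are known for effects on survival and growth.

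The values are log2 intensities, so that a fold change is a difference on this scale. In bulk RNA fewer cells of a type and less RNA per cell cannot be told apart. Array medians ran from 6.06 to 6.28, and arrays of a group correlated at 0.981 to 0.994. Of 13 measured B lineage markers, Cd79a, Cd79b, Ptprc and Vpreb2 were brighter than the median gene. The pro-B factors Pax5 and Ebf1 and the recombinase gene Rag1 were dim, with group means of 5.28 to 5.55, 4.58 to 4.76 and 4.86 to 5.03. None of 7 T cell markers was brighter than the median gene, against 5 of 9 myeloid, 2 of 8 mast cell and 4 of 5 erythroid markers. A set of 3 natural receptor arrays stood apart, namely untreated replicates 4 and 5 and IL-22 replicate 5. The mean over the 9 myeloid markers was 8.93 to 9.18 in these 3 arrays and 7.58 to 7.65 in the other 5 natural arrays. The integrin gene Itgam stood at 11.73 to 12.05 in the former and 8.73 to 8.98 in the latter, and the granule gene Mpo at 10.62 to 11.00 and 6.97 to 7.19. The mean over the B lineage markers did not split in this way, at 6.22 to 6.31 and 6.18 to 6.31. These 3 arrays are the natural arrays of high replicate numbers (4 and 5, against low numbers of 1 to 3). Results that rest on them are given with and without them, apart from correlations, which are given only with them. The part of the myeloid markers in any result was not tested.

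The region just before the start of transcription is shown for 4 genes, because each held a match to at least 1 of the motifs searched. Promoter windows of 250 bases came from RefSeq (GRCm38.p6) and were used for 6 of the 10 genes. Egr3, Ier2 and Phlda1 had none. The search for members left out 1 chromosome, that of Egr1, so whether Egr1 has a window was not read. Motifs were searched on both strands, and capitals mark the letters that matched. The Egr2 window lies at chr10:67537619-67537868 on the plus strand (the third of 5 listed starts), Nab1 at chr1:52500449-52500698 on the minus strand, Ier3 at chr17:35821463-35821712 on the plus strand and Btg2 at chr1:134079156-134079405 on the minus strand.
Egr2: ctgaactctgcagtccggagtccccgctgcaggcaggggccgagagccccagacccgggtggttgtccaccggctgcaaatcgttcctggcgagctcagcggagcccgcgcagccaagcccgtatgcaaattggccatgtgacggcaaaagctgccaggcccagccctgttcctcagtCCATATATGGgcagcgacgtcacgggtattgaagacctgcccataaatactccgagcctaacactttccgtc
Nab1: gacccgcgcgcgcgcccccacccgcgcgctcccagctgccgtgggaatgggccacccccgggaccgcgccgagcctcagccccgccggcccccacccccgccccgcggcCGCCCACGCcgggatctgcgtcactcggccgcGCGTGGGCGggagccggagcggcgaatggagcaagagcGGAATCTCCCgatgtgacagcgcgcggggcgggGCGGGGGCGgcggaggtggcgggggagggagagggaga
Ier3: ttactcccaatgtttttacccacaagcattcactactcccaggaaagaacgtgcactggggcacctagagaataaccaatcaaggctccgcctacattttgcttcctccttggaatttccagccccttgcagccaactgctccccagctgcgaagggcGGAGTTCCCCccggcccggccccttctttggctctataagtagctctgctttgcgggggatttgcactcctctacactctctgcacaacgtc
Btg2: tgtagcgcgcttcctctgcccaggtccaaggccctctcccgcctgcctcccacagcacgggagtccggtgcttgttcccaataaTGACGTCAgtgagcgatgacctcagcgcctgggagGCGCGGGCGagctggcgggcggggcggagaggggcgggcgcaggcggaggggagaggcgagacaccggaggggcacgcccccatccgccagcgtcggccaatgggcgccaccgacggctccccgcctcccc
Letters differed between the 5 Egr2 starts. The CArG box of the printed window also lies in the windows of the fourth and the fifth start, the second has a CArG box of other letters, and the first has kappa B matches that overlap and no CArG box. In the Egr2 window the capitals are a CArG box, the site of serum response factor, at 72 to 63 bases before the start. A CArG box was present in 1.47% of 32851 mouse promoter windows of this length. The Nab1 window held 3 matches to the EGR site GCGNGGGCG, at 141 to 133, 109 to 101 and 38 to 30 bases before the start. It also held a kappa B site at 71 to 62. The EGR site occurred in 4.7% of promoters and the kappa B site in 7.25%. Ier3 had a kappa B site at 92 to 83 bases before the start. Btg2 had the cyclic AMP response element TGACGTCA, found in 1.55% of promoters, at 166 to 159, and an EGR site at 131 to 123. No match overlapped another in these 4 windows. The Nab2 and Ier5 windows held none of the 8 motifs searched. The others searched were the AP-1 site TGANTCA, which 6.75% of promoters held, and the STAT site TTCNNNGAA, which 7.02% held. The ETS site was searched as CCGGAAG and was present in 6.91% of promoters. The core promoter element TATAAA was present in 12.4%. A match describes the letters only, and no binding was measured.

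Members separated into genes whose signal moved with ligand and genes whose signal did not. Over the 26 arrays Ier3 spanned 7.22 to 10.95, Phlda1 6.35 to 9.47, Egr2 6.59 to 9.43 and Nab2 9.67 to 11.82. Egr1 stayed between 5.47 and 6.29, and Egr3 between 6.97 and 7.54. The mean of Egr1 stood at percentile 40.2 of all genes, and whether so dim a probe set can report a change was not tested. For Egr1 the SD over all arrays and the pooled SD within groups were both 0.19 after rounding, whereas for Egr2 they were 0.83 and 0.26.

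**Figure D1:**
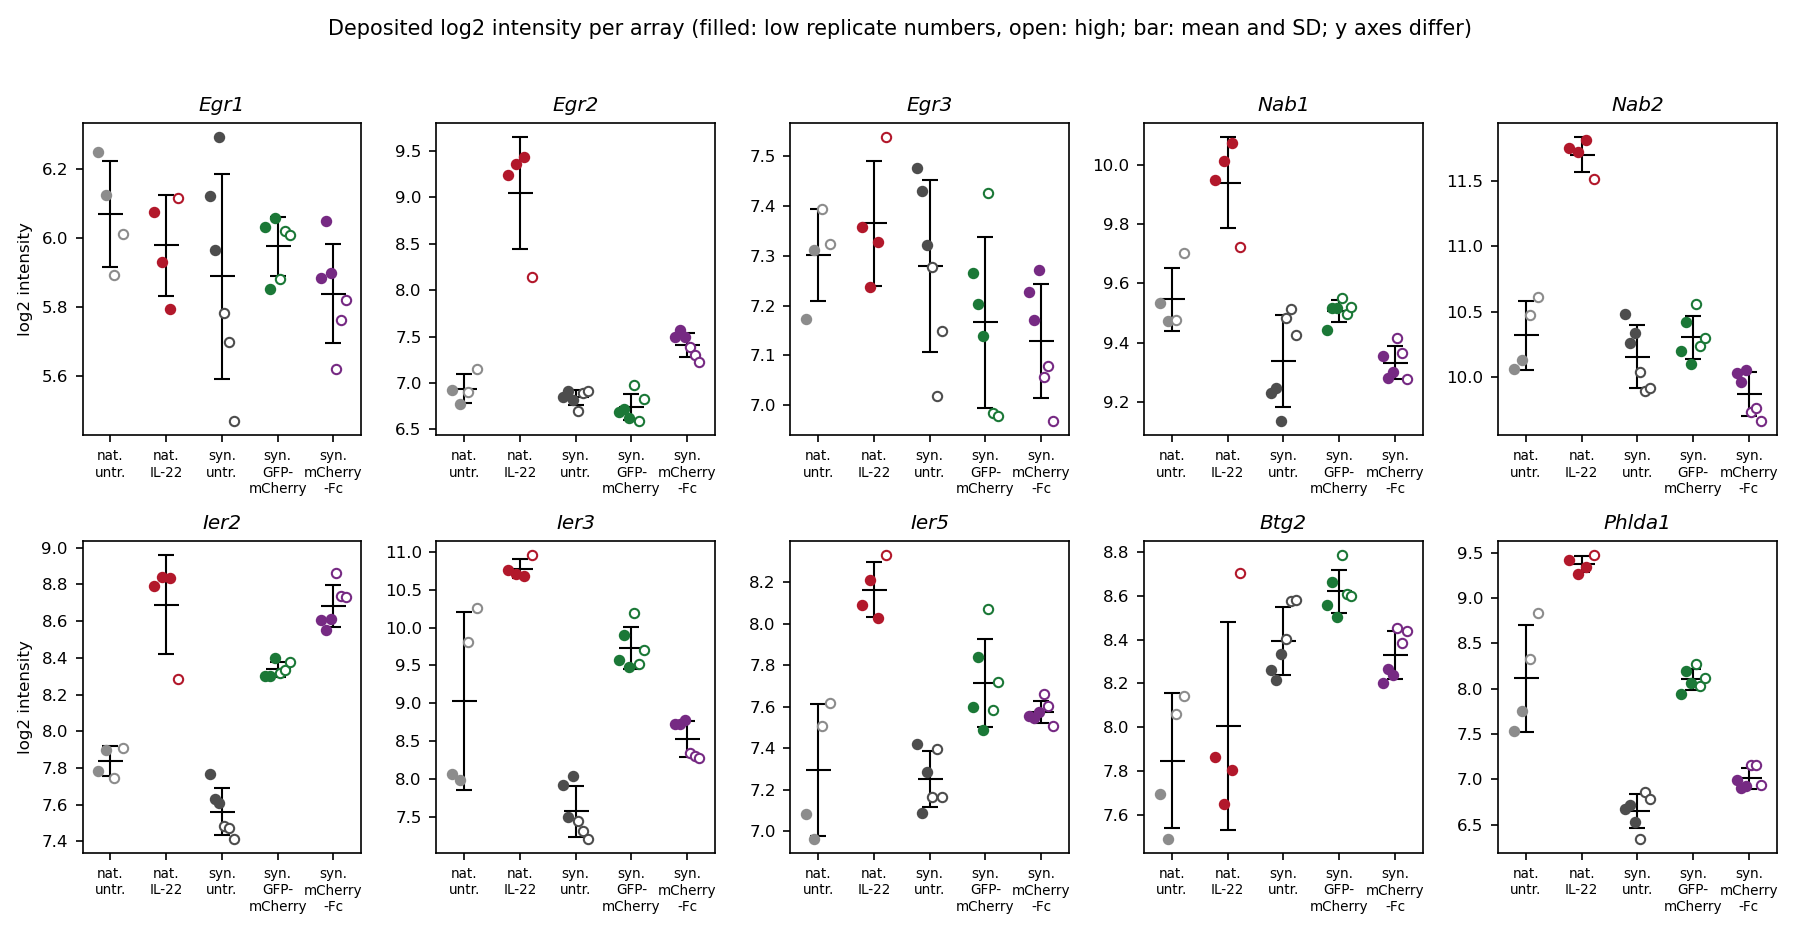
Deposited log2 intensity (y axis, scale set per gene) of the 10 genes on each of the 26 arrays, by group (x axis, natural or synthetic receptors), with filled points for low and open points for high replicate numbers and bars for the group mean and SD. Egr2 lies at 8.14 to 9.43 on the IL-22 arrays and at no more than 7.57 on any other array, while the 2 open untreated natural points of Ier3 (9.81 and 10.26) stand far above the 2 filled ones (8.06 and 7.98).

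The first comparison asked what IL-22 did in cells with the natural receptor pair. Egr2, both corepressors, all 3 IER genes and Phlda1 rose, while Egr1, Egr3 and Btg2 did not pass the test. That is 7 of 10 genes higher and 0 lower, where 5.39% of all genes were higher and 6.03% lower (limma, adjusted p under 0.05). In all 7 the IL-22 and untreated arrays did not overlap, which held for 11.4% of all genes in either direction. The median log2 change was 0.86 over the members and -0.02 over all genes. Markers of other cell types moved in the same comparison, with 3 of 5 erythroid and 1 of 8 mast cell markers lower and 1 of 9 myeloid markers higher. Klf1 went from 8.35 to 7.23 and the progenitor factor gene Gata2 from 12.29 to 11.26, and their part in the result was not tested.

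Egr2 stood at 6.92, 6.78, 6.90 and 7.15 in the untreated arrays and at 9.24, 9.35, 9.43 and 8.14 with IL-22. Every IL-22 array was above every untreated array, and replicate 5 was the lowest of the 4. The increase was 4.30-fold (log2 change 2.10, SE 0.17, 95% interval 1.76 to 2.44, limma adjusted p = 1.25e-10). Nab2, an EGR corepressor and itself an EGR target, went from 10.06, 10.13, 10.47 and 10.61 to 11.75, 11.72, 11.82 and 11.51. This was a 2.61-fold increase (log2 change 1.38, SE 0.13, adjusted p = 4.38e-09 in limma). Its paralog Nab1 moved less, lying between 9.47 and 9.70 untreated and between 9.72 and 10.07 with IL-22, a 1.31-fold increase (adjusted p = 0.000777 in limma). Egr1 and Egr3 had log2 changes of -0.09 (95% interval -0.34 to 0.16) and 0.06 (-0.14 to 0.27), so that a change of the size seen for Egr2 lies outside both intervals. For Egr1 this describes the signal of a probe set dimmer than the median gene.

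Ier3, an inhibitor of cell death also called IEX-1, stood at 8.06, 7.98, 9.81 and 10.26 in untreated arrays and at 10.76, 10.71, 10.68 and 10.95 with IL-22. The groups did not overlap, but the untreated arrays spread over more than 2 log2 units while the IL-22 arrays lay within 0.27 of each other. The increase was 3.36-fold over all arrays (log2 change 1.75, SE 0.32, limma adjusted p = 0.000226). Without the 3 natural arrays of high numbers it was 6.47-fold (log2 change 2.69, adjusted p = 7.28e-10). The SE of 0.32 uses a spread shared by all 5 groups, as do the Ier3 tests of the other comparisons. The SD of Ier3 was 1.18 in untreated natural arrays, 0.12 with IL-22 and 0.24 to 0.33 in the synthetic groups. The Ier3 SEs and p-values therefore do not measure the spread of the compared groups alone. Phlda1, whose product has a pleckstrin homology-like domain, went from 7.53, 7.76, 8.33 and 8.84 to 9.42, 9.27, 9.34 and 9.47. Its increase was 2.40-fold (log2 change 1.26, SE 0.16, limma adjusted p = 1.70e-06), and 3.25-fold without those 3 arrays.

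Ier2, a growth factor-induced nuclear protein, stood at 7.78, 7.90, 7.75 and 7.91 untreated and at 8.79, 8.84, 8.84 and 8.29 with IL-22, an increase of 1.81-fold (limma adjusted p = 1.05e-07). Ier5, a regulator of heat shock factor activity, lay between 6.96 and 7.62 untreated and between 8.03 and 8.33 with IL-22, and rose 1.83-fold (limma adjusted p = 4.08e-06). Btg2, an antiproliferative partner of the CCR4-NOT deadenylase, had a log2 change of 0.16 (95% interval -0.16 to 0.47, limma adjusted p = 0.673). Its highest IL-22 value (8.70) and its highest untreated values (8.06 and 8.14) came from the 3 arrays with high myeloid markers.

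Without those 3 arrays the same 7 genes were called, with log2 changes of 2.49 for Egr2, 1.67 for Nab2, 0.51 for Nab1, 0.98 for Ier2 and 1.09 for Ier5. Within the high numbers, where 1 IL-22 array faced 2 untreated ones and the lone array is assumed to vary like the others, the log2 changes were 1.12 for Egr2, 0.97 for Nab2, 0.92 for Ier3 and 0.89 for Phlda1. In that fit the calls of Ier3 (limma adjusted p = 0.0523) and Nab1 (0.663) were lost, and Btg2 was called (log2 change 0.60, adjusted p = 0.00799).

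The second comparison asked what joining both synthetic chains did. GFP-mCherry raised Ier3, Phlda1, Ier2 and Ier5, 4 of 10 genes, and lowered none, where 14.2% of all genes were higher and 11.8% lower (limma, adjusted p under 0.05). All 4 had groups that did not overlap, as did 14.1% of all genes. In this comparison 2 of 5 erythroid and 2 of 9 myeloid markers were higher, and 1 erythroid and 2 of 8 mast cell markers were lower. Of 13 B lineage markers 1 was higher and 2 were lower, and 2 of 7 T cell markers were lower. With each array centred on its median no B lineage, T cell or mast cell marker was lower. The median log2 change was 0.20 over the members and -0.04 over all genes. Centring each array on its median would add 0.10 to every log2 change against untreated synthetic cells with GFP-mCherry and 0.11 with mCherry-Fc. It would turn the split of all called genes from 54.8% to 88.5% higher with GFP-mCherry and from 51.9% to 88.8% with mCherry-Fc.

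Ier3 lay between 7.22 and 8.04 (median 7.47) in untreated arrays and between 9.48 and 10.20 (median 9.64) with GFP-mCherry. The groups were apart by more than 1 log2 unit, and the increase was 4.46-fold (log2 change 2.16, SE 0.26, limma adjusted p = 7.09e-07). Phlda1 lay between 6.35 and 6.86 (median 6.69) untreated and between 7.94 and 8.27 (median 8.09) with GFP-mCherry, again with a wide gap. Its increase was 2.74-fold (log2 change 1.45, SE 0.13, adjusted p = 9.63e-09 in limma). Ier2 lay between 7.42 and 7.77 (median 7.55) untreated and between 8.30 and 8.40 (median 8.33) with GFP-mCherry, a 1.71-fold increase (adjusted p = 3.57e-08 in limma). Ier5 lay between 7.09 and 7.42 (median 7.22) and between 7.49 and 8.07 (median 7.66), a 1.38-fold increase (adjusted p = 0.000901 in limma).

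The EGR factors and their corepressors did not pass the test with GFP-mCherry. Egr2 lay between 6.70 and 6.91 (median 6.87) untreated and between 6.59 and 6.97 (median 6.70) with the fusion. The arrays overlapped, and its log2 change was -0.11 (95% interval -0.38 to 0.17, limma adjusted p = 0.585). Egr1 and Egr3 had log2 changes of 0.09 and -0.11, and Nab2 of 0.15 (95% interval -0.07 to 0.37, limma adjusted p = 0.313). Nab1 had a log2 change of 0.17 and missed the threshold narrowly (limma adjusted p = 0.0571). Nab1 was called in 11 of the 26 alternative settings run for this comparison. Among them were the fits without untreated replicate 12, 13 or 14 (limma adjusted p of 0.0335, 0.0209 and 0.0483) and median centring (0.00579). Btg2 had a log2 change of 0.23 (limma adjusted p = 0.187) and was called within the low numbers (0.31, adjusted p = 0.00734). Egr3 was called lower there as well (-0.21, adjusted p = 0.0282), while Egr2 was not (-0.18, adjusted p = 0.0534). Egr1, at 0.32 (adjusted p = 0.0235), and Nab2, at 0.41 (0.00536), were called only within the high numbers among the settings run.

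The third comparison asked what mCherry-Fc, which can pair only IL-10R2 chains, did in the same cells. These arrays share their untreated controls with the GFP-mCherry arrays. Ier2, Ier3, Egr2, Phlda1 and Ier5 were higher and Nab2 was lower. That is 5 genes higher and 1 lower of 10, where 26.9% of all genes were called, 14.0% higher and 13.0% lower (limma, adjusted p under 0.05). In 5 of the members, all but Nab2 among those called, the groups did not overlap, as in 11.3% of all genes. The median log2 change was 0.16 over the members and -0.04 over all genes. Of the markers, 2 of 13 B lineage, 4 of 7 T cell, 2 of 8 mast cell and 1 of 5 erythroid were lower. Higher were 2 erythroid and 1 of 9 myeloid markers. After median centring 1 B lineage marker was lower, and no T cell, mast cell or erythroid marker was.

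Ier2 lay between 8.55 and 8.86 (median 8.67) with mCherry-Fc, above every untreated array. It rose 2.17-fold (log2 change 1.12, SE 0.08, limma adjusted p = 6.46e-11), the smallest adjusted p of any member in this comparison. Ier3 lay between 8.28 and 8.78 (median 8.54), a 1.94-fold increase (log2 change 0.95, SE 0.26, adjusted p = 0.00859 in limma). Egr2 lay between 7.23 and 7.57 (median 7.44), and its lowest array stood above the highest untreated one at 6.91. It rose 1.48-fold (log2 change 0.56, SE 0.13, adjusted p = 0.00328 in limma). Ier5 rose 1.25-fold (adjusted p = 0.0171 in limma).

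Phlda1 (1.29-fold, limma adjusted p = 0.0463) and Nab2 (1.22-fold lower, adjusted p = 0.0457) passed the threshold narrowly. Nab2 lay between 9.90 and 10.48 (median 10.15) untreated and between 9.67 and 10.05 (median 9.87) with mCherry-Fc, and the arrays overlapped. The Phlda1 call was lost without any one of untreated replicates 7, 9, 11 and 12 or mCherry-Fc replicates 8, 13, 14 and 15. The Nab2 call was lost without untreated replicate 7, 9 or 11 or mCherry-Fc replicate 13, 14 or 15. Left-out fits gave log2 changes of 0.30 to 0.40 for Phlda1 and -0.34 to -0.22 for Nab2. After median centring the Nab2 change was -0.18 (limma adjusted p = 0.189), which leaves 5 members higher and 0 lower. With the replicate number as a block, 3 of the 6 genes stayed called (Ier2, Ier3 and Ier5), while Egr2 (adjusted p = 0.0618), Phlda1 (0.132) and Nab2 (0.193) were not. Egr1, Egr3, Nab1 and Btg2 had log2 changes of -0.05, -0.15, -0.01 and -0.07 and were not called.

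**Figure D2:**
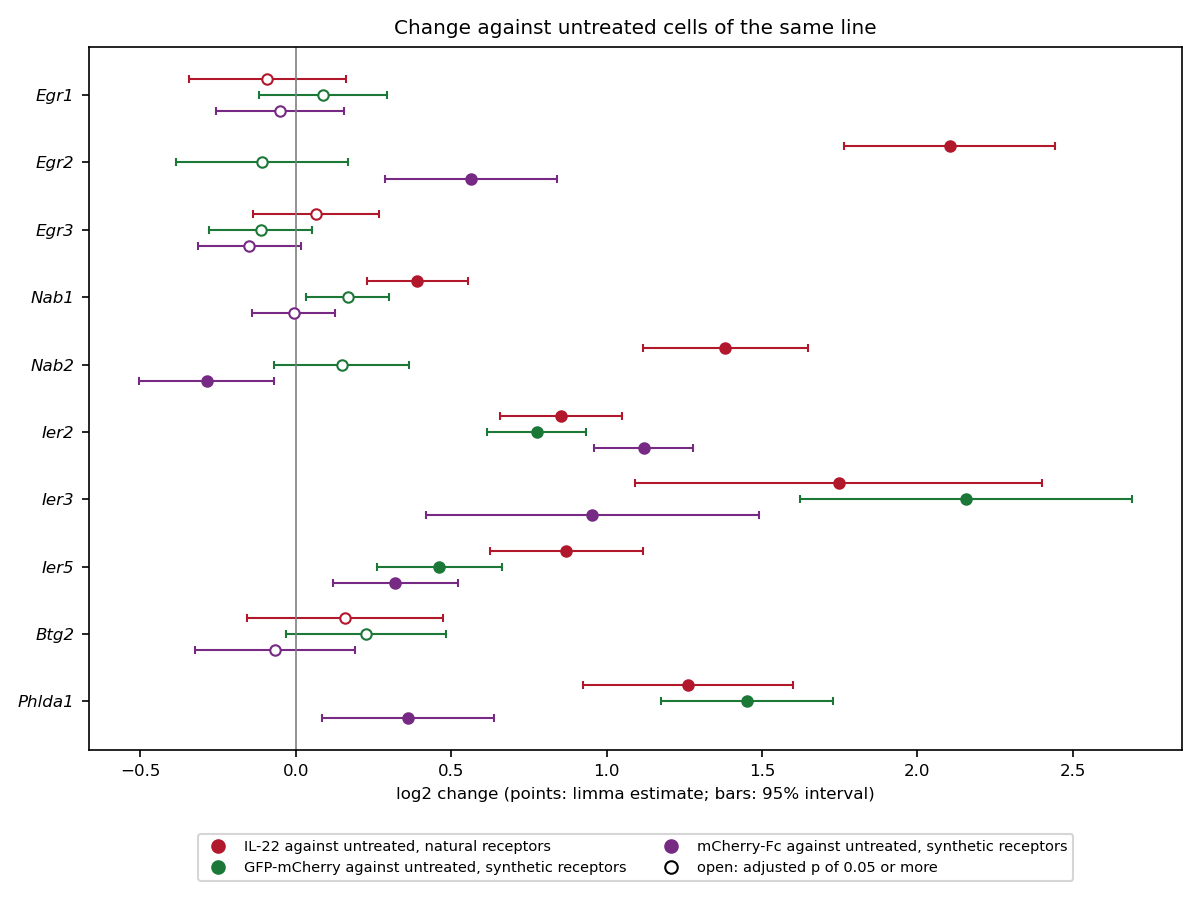
Log2 change against untreated cells of the same line (x axis) for each gene (y axis), with points for the limma estimate and bars for its 95% interval, by ligand, and open points where the adjusted p was 0.05 or more. Egr2 is at 2.10 with IL-22, 0.56 with mCherry-Fc and -0.11 with GFP-mCherry, whereas Ier2 lies between 0.77 and 1.12 with all 3 ligands.

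GFP-mCherry and mCherry-Fc were also compared directly. Phlda1, Ier3 and Nab2 were higher with GFP-mCherry, and Egr2 and Ier2 were higher with mCherry-Fc. So 5 of 10 genes were called, 3 higher and 2 lower, where 0.722% of all genes were higher and 0.371% lower (limma, adjusted p under 0.05). In 7 members the arrays did not overlap, against 2.96% of all genes. The median log2 difference was 0.16 over the members and 0.00 over all genes.

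Phlda1 was 2.13-fold higher with GFP-mCherry (log2 difference 1.09, SE 0.13, limma adjusted p = 5.63e-06). Its lowest GFP-mCherry array (7.94) stood above the highest mCherry-Fc array (7.16). Ier3 was 2.30-fold higher (log2 difference 1.20, SE 0.26, adjusted p = 0.0127 in limma) and Nab2 1.35-fold higher (adjusted p = 0.0346 in limma). Egr2 was 1.59-fold lower with GFP-mCherry (log2 difference -0.67, SE 0.13, limma adjusted p = 0.00544). Ier2 was 1.27-fold lower (log2 difference -0.35, adjusted p = 0.0169 in limma).

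With the replicate number as a block, which left 100 of the 218 calls over all genes, only Phlda1 remained called among the 10. The log2 differences then were -0.66 for Egr2 (limma adjusted p = 0.281), 1.15 for Ier3 (0.120), -0.41 for Ier2 (0.188) and 0.43 for Nab2 (0.386). The Ier2 call was lost without mCherry-Fc replicate 13 (adjusted p = 0.0635), and the Nab2 call without GFP-mCherry replicate 9, 12, 13 or 14 or mCherry-Fc replicate 13, 14 or 15. Nab1 and Btg2 had arrays that did not overlap and log2 differences of 0.17 and 0.29, but limma adjusted p of 0.341 and 0.470. Ier5 (0.14), Egr1 (0.14) and Egr3 (0.04) were not called.

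Whether the synthetic responses differed from the IL-22 response was tested as the difference of the changes, each against untreated cells of its own line. For GFP-mCherry the changes of Egr2 and Nab2 were smaller by 2.21 and 1.23 log2 units, shown as -2.21 (95% interval -2.65 to -1.77, limma adjusted p = 1.54e-08) and -1.23 (-1.58 to -0.89, adjusted p = 5.87e-06). These were 2 genes lower and 0 higher of 10, where 4.40% of all genes were lower and 9.23% higher. The differences for the other members had intervals that included 0, except Ier5 at -0.41 (limma adjusted p = 0.0797) and Nab1 at -0.22 (0.155). Ier5 was called when natural untreated replicate 4 or 5 or GFP-mCherry replicate 12 was left out (adjusted p of 0.0422, 0.0215 and 0.0276), and Nab1 without IL-22 replicate 5 (0.0350). For Ier2 the difference was -0.08 (-0.33 to 0.17), for Phlda1 0.19 (-0.25 to 0.63) and for Ier3 0.41 (-0.44 to 1.25).

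For mCherry-Fc the differences were -1.67 for Nab2 (limma adjusted p = 3.57e-08), -1.54 for Egr2 (8.50e-06), -0.90 for Phlda1 (0.00455), -0.55 for Ier5 (0.0173) and -0.40 for Nab1 (0.00914). These were 5 genes lower and 0 higher of 10, where 4.60% of all genes were lower and 8.76% higher. For Ier2 the difference was 0.27 (95% interval 0.01 to 0.52) and not called (limma adjusted p = 0.156). After median centring Ier2 was called higher (0.35, adjusted p = 0.0483) and Nab1 was not called (-0.31, adjusted p = 0.0626), which leaves 1 gene higher and 4 lower. The Ier5 call was lost without natural untreated replicate 2 or 3 (adjusted p of 0.0516 and 0.0560), and Ier3, at -0.79, was called without natural untreated replicate 5 (-1.20, adjusted p = 0.0233). With the replicate number as a block Nab1 was no longer called (-0.38, limma adjusted p = 0.0790).

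Without the 3 natural arrays of high numbers the Egr2 and Nab2 differences grew, to -2.60 and -1.52 for GFP-mCherry and -1.93 and -1.95 for mCherry-Fc. Nab1 (-0.34, limma adjusted p = 0.0276) and Ier5 (-0.62, adjusted p = 0.00365) were then called for GFP-mCherry, and Ier3 (-1.74, adjusted p = 2.28e-05) for mCherry-Fc. The sign of the Ier3 difference for GFP-mCherry turned with these arrays. It was 0.41 with all arrays, -0.54 without the 3 (limma adjusted p = 0.165), -0.86 within low numbers of both lines (0.00446) and 1.56 within high numbers (0.00904).

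**Figure D3:**
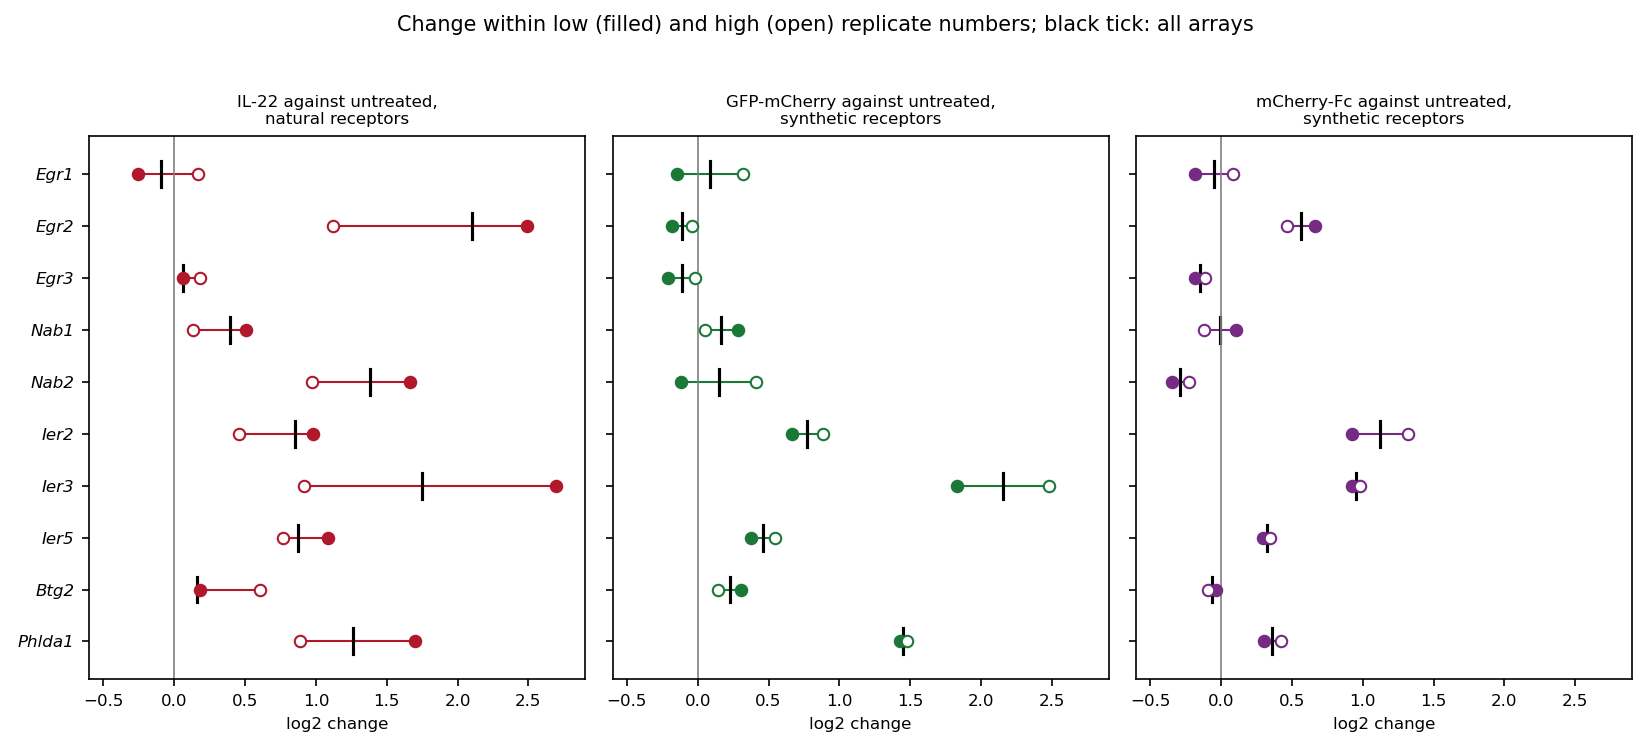
Log2 change against untreated cells (x axis) of each gene (y axis) for the 3 ligands (panels), fitted within low replicate numbers (filled), within high ones (open) and over all arrays (black tick). Ier3 with IL-22 goes from 2.69 within low to 0.92 within high numbers, whereas with mCherry-Fc it is 0.93 and 0.98.

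The untreated lines were set against each other to see where the genes started. Phlda1, Ier3 and Ier2 were lower and Btg2 was higher in synthetic receptor cells. That is 3 genes lower and 1 higher of 10, where 6.62% of all genes were lower and 8.60% higher (limma, adjusted p under 0.05). Only Phlda1 and Btg2 had arrays that did not overlap, against 10.0% of all genes. Phlda1 was 2.76-fold lower (log2 difference -1.46, SE 0.15, limma adjusted p = 5.78e-08), and Btg2 was 1.46-fold higher (0.55, adjusted p = 0.00725). Myeloid markers differed between these groups too, with 5 of 9 lower and 1 higher, and Itgam was at 10.34 in natural and 5.59 in synthetic untreated cells. Of the erythroid markers 3 of 5 were higher in synthetic cells, and the erythroid factor gene Klf1 was at 8.35 in natural and 8.92 in synthetic cells. Their part in these differences was not tested.

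Ier3 was 2.75-fold lower in untreated synthetic cells (log2 difference -1.46, SE 0.29, limma adjusted p = 0.000723), but this rested on the 2 natural arrays of high numbers. Without the 3 natural arrays of high numbers the difference was -0.45 (adjusted p = 0.167). Phlda1 (-0.99, adjusted p = 7.43e-07) and Btg2 (0.80, adjusted p = 3.97e-06) were called in that fit. Ier2 (-0.27, limma adjusted p = 0.0311) was called there as well (-0.28, adjusted p = 0.0304). It was not called without natural untreated replicate 3 or 5 or synthetic untreated replicate 12, 13 or 14 (adjusted p of 0.0644 to 0.104). Nab1, at -0.21 (limma adjusted p = 0.0533), was called without synthetic untreated replicate 12 or 13 (0.0341 and 0.0249).

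Replicate number moved with several members inside a treatment. In untreated natural cells Ier3 averaged 8.02 in the low and 10.04 in the high numbers, a 4.03-fold gap in cells that had received no ligand. Phlda1 averaged 7.64 and 8.58 there, Ier5 7.02 and 7.56, Btg2 7.59 and 8.10, and Nab2 10.10 and 10.54. In untreated synthetic cells Nab2 ran the other way, at 10.36 in low and 9.95 in high numbers, as did Ier3 (7.82 and 7.33). Egr1 was lower in the high numbers of both untreated lines (6.19 and 5.95 natural, 6.13 and 5.65 synthetic). The low and high arrays did not overlap for 7 of 10 members in untreated natural cells (47.5% of all genes), 7 in untreated synthetic cells (42.6%), 7 with mCherry-Fc (38.1%) and 0 with GFP-mCherry (13.5%). With IL-22, where 1 high array faced 3 low ones, they did not overlap for 10 of 10 members (63.8%). The labels do not say what the numbers stand for, the ranges came from an earlier look at these data, and the gaps between ranges were not tested.

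Taken by level, the natural IL-22 arrays were highest for 8 genes, all but Egr1 and Btg2. For Egr2 the order was IL-22 (9.04 ± 0.60, SD, n = 4), mCherry-Fc (7.41 ± 0.13, n = 6), then untreated natural (6.94 ± 0.15, n = 4), untreated synthetic (6.85 ± 0.08, n = 6) and GFP-mCherry (6.74 ± 0.14, n = 6). The last 3 overlapped with their neighbours. Ier2 gave 8.69 ± 0.27 with IL-22 and 8.68 ± 0.11 with mCherry-Fc, which overlapped, then 8.34 ± 0.04 with GFP-mCherry and, below a gap, both untreated groups (7.84 ± 0.08 natural and 7.56 ± 0.13 synthetic). For Phlda1 IL-22 (9.38 ± 0.09) stood above untreated natural (8.11 ± 0.59) and GFP-mCherry (8.10 ± 0.12), which overlapped, followed by mCherry-Fc (7.01 ± 0.12) and untreated synthetic (6.65 ± 0.19). Ier3 was highest with IL-22 (10.78 ± 0.12), and GFP-mCherry (9.73 ± 0.27), untreated natural (9.03 ± 1.18) and mCherry-Fc (8.53 ± 0.24) overlapped in turn above untreated synthetic (7.57 ± 0.33). For Nab1 and Nab2 the IL-22 arrays alone stood apart from the next group. For Ier5, Btg2, Egr1 and Egr3 every neighbouring pair of groups overlapped.

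Members also varied together across the 26 arrays, as a description in which the points share 5 group means. Ier3 and Phlda1 had a Pearson r of 0.93 over all arrays and 0.72 within groups, and Ier3 and Ier5 of 0.87 and 0.79. Egr2 and Nab2 had r of 0.80 over all arrays and 0.47 within groups. Spread within groups was uneven. In untreated natural arrays, 2 of them of high numbers, the SD was 1.18 for Ier3, 0.59 for Phlda1 and 0.32 for Ier5. In the other groups it was 0.12 to 0.33, 0.09 to 0.19 and 0.05 to 0.21. For Egr2 the SD was 0.60 with IL-22 and 0.08 to 0.15 elsewhere. No r was computed without the 3 natural arrays of high numbers. Egr1 and Egr2 had r of -0.04. For each member the 3 genes of highest r were read off. Members, predicted loci, small RNAs and all genes with names starting with Rn were left out of this ranking. For Egr2 these were Tiparp, Trim30a and Ffar2 (r of 0.95 each), and for Nab2 Zfp36l1, Ptk2b and Trerf1 (0.94 each). For Nab1 they were Riok3 (0.94), Hivep2 (0.94) and Casp4 (0.93). Ier2 lay closest to Id1 (0.94), Rpp38 (0.92) and Ltbr (0.92), and Ier3 to Gadd45b (0.96), Tnf (0.94) and Jund (0.93). Phlda1 also had Tnf among its nearest (0.96), with Lrrc25 (0.96) and Fas (0.95). Ier5 was nearest to Junb (0.91), Tm2d2 (0.91) and Rab27a (0.90), and Btg2 to Tmem35b (0.90), Zfp667 (0.90) and Plac8 (0.89). For Egr1 (Ppp1r3e 0.73, Mt2 0.71, Prr33 0.69) and Egr3 (Pnpla3 0.84, Pkd1l3 0.83, Hes5 0.83), which had little spread between groups, the highest values were lower.

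The wider set of immediate early genes was read beside the members, from a list of 44 that holds the AP-1 factors, DUSP phosphatases, Sprouty genes and others. With IL-22 20 rose and 4 fell, and the median log2 change was 0.23. The largest log2 changes were in Zfp36, an mRNA decay factor (3.35), and the AP-1 factors Junb (1.69) and Fosl2 (1.37). The nuclear protein gene Csrnp1, which rose 2.82-fold, came between Junb and Fosl2. With GFP-mCherry 19 rose and 7 fell (median 0.09), led by the ERK phosphatase Dusp4 (1.26), the ETS factor Etv5 (1.15), Myc (0.97) and the ERK inhibitor Spred2 (0.91). With mCherry-Fc 18 rose and 6 fell (median 0.08), led by Dusp6 (1.64), Dusp4 (1.58), Etv5 (1.51) and Myc (1.40). Calls in either direction were 54.5% of the list with IL-22, 59.1% with GFP-mCherry and 54.5% with mCherry-Fc. The shares over all genes were 11.4% with IL-22, 14.2% higher and 11.8% lower with GFP-mCherry, and 26.9% with mCherry-Fc. After median centring the counts became 21 and 2 with GFP-mCherry and 22 and 1 with mCherry-Fc. Of all called genes 88.5% and 88.8% were then higher. After a new quantile normalization they were 16 and 3 with each. With any 1 array left out 17 to 18 rose and 3 to 7 fell with GFP-mCherry, and 16 to 18 rose and 4 to 8 fell with mCherry-Fc.

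**Figure D4:**
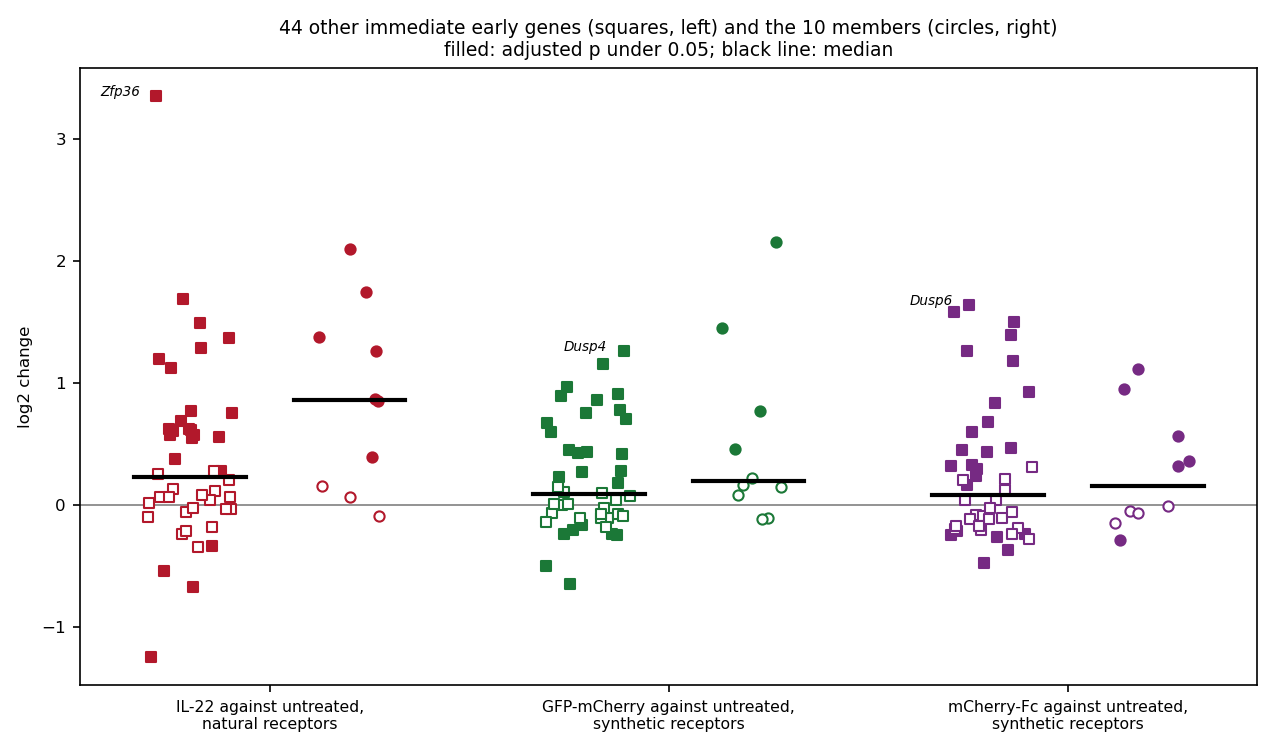
Log2 change against untreated cells (y axis) of 44 other immediate early genes (squares) and of the 10 members (circles) for each ligand (x axis), filled where the adjusted p was under 0.05, with the median as a black line. The medians are 0.23 and 0.86 with IL-22, 0.09 and 0.20 with GFP-mCherry, and 0.08 and 0.16 with mCherry-Fc.

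Of 10 listed paralogs 9 were measured. Tob1, a relative of BTG2, rose with IL-22 (log2 change 0.57, limma adjusted p = 4.27e-05) and fell with GFP-mCherry (-0.31, adjusted p = 0.00325). Egr4 was lower with mCherry-Fc (-0.30, limma adjusted p = 0.00565; -0.19 and 0.0385 after median centring, -0.19 and 0.0581 after quantile normalization). With GFP-mCherry its log2 change was -0.22 (limma adjusted p = 0.0369), and -0.11 after median centring (0.249). Btg1, Btg4, Tob2, Ier5l, Phlda2, Phlda3 and Wt1 had log2 changes of -0.21 to 0.13 against untreated cells and were not called in those 3 comparisons. Between the untreated lines Tob2 was higher in synthetic cells (0.28, limma adjusted p = 0.00653).

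Among 15 measured of 21 ERK and SRF pathway components, 3 rose and 3 fell with IL-22, 2 rose and 2 fell with GFP-mCherry, and 2 rose and 4 fell with mCherry-Fc. These are 40.0%, 26.7% and 40.0% of the list. Over all genes 11.4% were called with IL-22, 14.2% higher and 11.8% lower with GFP-mCherry and 26.9% with mCherry-Fc, so that the share with GFP-mCherry was at the background. The kinase gene Rps6ka3 (1.06), Srf itself (0.46) and its partner gene Elk1 (0.42) rose with IL-22, and the SRF coactivator gene Mrtfa fell (-0.48). Map2k2, which encodes an ERK kinase, rose with GFP-mCherry (0.54) and mCherry-Fc (0.51), as did Srf (0.31 and 0.37). Mrtfb fell with both (-0.44 and -0.35). Mrtfa fell with GFP-mCherry (-0.35), and Elk3 fell with mCherry-Fc (-0.27). Both Mrtfa and Mrtfb were called lower with all 3 ligands, and Elk3 was called lower with IL-22 as well. Under median centring the counts were 3 and 2 with GFP-mCherry and 4 and 1 with mCherry-Fc, and under quantile normalization 2 and 5 and 2 and 4.

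All 11 genes of the CCR4-NOT deadenylase list, the partner complex of BTG2, were measured. Calls were 2 of 11 with IL-22 and 3 of 11 with each synthetic ligand, 18.2% and 27.3%. Over all genes 11.4% were called with IL-22, 14.2% higher and 11.8% lower with GFP-mCherry and 26.9% with mCherry-Fc, so that the shares with the synthetic ligands were near the background. With IL-22 Cnot6l (-0.43) and Cnot8 (-0.26) fell. With GFP-mCherry Cnot3 (-0.37) and Cnot1 (-0.18) fell and Cnot11 (0.18) rose. With mCherry-Fc Cnot3 (-0.17) and Cnot1 (-0.12) were called lower and Cnot8 (0.20) higher, but with any 1 array left out 0 to 1 genes of the list were lower and 0 to 2 higher. The counts with GFP-mCherry and mCherry-Fc turned to 2 higher and 1 lower and 3 higher and 0 lower after median centring, and to 0 and 4 and 0 and 2 after quantile normalization.

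Of 15 p53 targets, a list chosen because Btg2 is one, 12 were measured. With IL-22 the death receptor gene Fas (1.15) and Aen (0.44) rose, and Sesn1 (-1.01), Trp53inp1 (-0.86) and Bbc3 (-0.41) fell. With GFP-mCherry Fas (1.32), Aen (0.41) and Sesn1 (0.40) rose and Mdm2 (-0.37) fell, and with mCherry-Fc Aen (0.57) rose. Calls were 41.7% of the measured list with IL-22, 33.3% with GFP-mCherry and 8.33% with mCherry-Fc. The shares over all genes were 11.4% with IL-22, 14.2% higher and 11.8% lower with GFP-mCherry, and 26.9% with mCherry-Fc. The p53 share with GFP-mCherry was therefore near the background, and that with mCherry-Fc was below it. After median centring the counts were 5 higher and 0 lower with GFP-mCherry and 3 and 0 with mCherry-Fc. That centring made 88.5% and 88.8% of all called genes higher.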

How the data were processed

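RNA from 26 samples was measured on Affymetrix Mouse Gene arrays. The authors deposited 1 log2 intensity for each probe set and sample, made with Affymetrix Expression Console 4.0 per the submitters' processing notes, at the core level per the labels. The summarization algorithm and background correction are not given in the sources used here. RNA had passed a quality limit before labelling, per the labels' protocols. The dose label of mCherry-Fc carries a stray letter and was read as 100 ng/ml. Of 35556 probe sets, 21789 had 1 gene symbol, 1621 had several and 12146 had none in the platform annotation. The probe set with the highest mean was kept for each of 19938 genes. Each of the 10 members had 1 probe set, so the planned check of second probe sets had nothing to compare.

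A limma fit (version 3.58.1, R 4.3.3) gave all 26 arrays 5 group means (21 residual degrees of freedom) and 7 two-sided comparisons. Each was adjusted by Benjamini-Hochberg over all genes, with calls at an adjusted p under 0.05. The code was tested on simulated data. The number of arrays limits the precision. The members and lists were chosen with earlier results of these data known. All members were named, with up to 4 called genes of largest change from each list against untreated cells (all called, where 5 or fewer). Every measured paralog and the 3 nearest genes of each member were named too. Predicted loci, small RNAs and genes with names starting with Rn were left out of the nearest genes. Alternatives covered scaling, filters on dim genes, variance prior, array weights, groups in the fit, a minimum change, replicate numbers and each array left out. A fit without the 3 natural arrays of high numbers was chosen after seeing the data. Some genes of the context lists were not analysed here.

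Whether equal replicate numbers pair samples was read from the correlation of their deviations from the group means. It was 0.31 to 0.62 in the 3 natural pairs and 0.26 to 0.47 in the 3 pairs of untreated with mCherry-Fc. In the 3 pairs of GFP-mCherry with mCherry-Fc it was 0.11 to 0.27. All were over 0.1, and by that limit these comparisons count as paired. Arrays of equal number also share a number range (low or high), and the correlation cannot tell pairing from range. The main fit left the pairing out, and the replicate block was run as an alternative. For GFP-mCherry against untreated, replicates 7, 9, 13 and 14 gave 0.16, 0.24, 0.42 and 0.14, over that limit. Replicates 11 and 12 gave -0.15 and -0.06, so this comparison as a whole was not counted as paired. The pairing comes from the data, since the labels do not state it.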

Additional observations from a re-analysis of the deposited data

Results flagged for a closer look

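Dixon's rule was applied to 50 sets of values, each a member in a group, and picked 2, where chance alone picks about 1 in 20. Both were IL-22 replicate 5 of natural receptor cells, 1 of the 3 arrays with high myeloid markers. Egr2 was 8.14 there against 9.24 to 9.43 in the other arrays of the group, and Ier2 was 8.29 against 8.79 to 8.84.

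The response to a synthetic ligand differed from the IL-22 response in 7 of 20 tests of the difference (limma, adjusted p under 0.05). These were 2 of 10 with GFP-mCherry and 5 of 10 with mCherry-Fc, where 13.6% and 13.4% of all genes were called. The share with GFP-mCherry was near the background. Both sets of tests share the IL-22 arrays and the untreated arrays of both lines, so they are not separate. With GFP-mCherry the log2 change was lower by the difference of -2.21 for Egr2 and -1.23 for Nab2. With mCherry-Fc the difference was -1.67 for Nab2, -1.54 for Egr2, -0.90 for Phlda1, -0.55 for Ier5 and -0.40 for Nab1. Cell line, receptor and ligand all differ in these comparisons and cannot be told apart.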

How the results depend on the processing

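Of 70 member changes, 33 were called, 9 of these under every alternative and 24 lost under at least 1. Of the 37 not called, 16 were called under at least 1. In 1 of them a call had the sign opposite to the main fit, Ier3 in GFP-mCherry against IL-22 response (-0.86 within low numbers). Signs also turned without such a call. Over the settings the log2 change ran from -0.12 to 0.41 for Nab2 with GFP-mCherry and from -0.08 to 0.60 for Btg2 with IL-22. With each array left out, the members called numbered 7 to 7 for IL-22, 4 to 5 for GFP-mCherry, 4 to 6 for mCherry-Fc, 3 to 5 for GFP-mCherry against mCherry-Fc, 2 to 3 and 4 to 6 for the differences of the GFP-mCherry and mCherry-Fc responses from IL-22, and 3 to 4 between untreated lines. The lowest of these for GFP-mCherry against mCherry-Fc, 3, came without mCherry-Fc replicate 13.

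A minimum change of 1.5-fold left 3 members for IL-22, 2 for GFP-mCherry, 1 for mCherry-Fc, 0 for GFP-mCherry against mCherry-Fc, 2 for the mCherry-Fc difference and 1 between lines. The replicate block left 3 for mCherry-Fc and 1 for GFP-mCherry against mCherry-Fc. In the comparisons counted as paired it changed no call of a member for IL-22. For GFP-mCherry against untreated, which was not counted as paired, the block added Btg2 (0.23, limma adjusted p = 0.0300). Among the differences of responses the block added Ier5 for GFP-mCherry (-0.50, adjusted p = 0.0432). Low numbers gave 7 for GFP-mCherry and 5 for its difference from IL-22. High numbers gave 3 for the mCherry-Fc difference, and the number range as a batch term gave 8. For the GFP-mCherry difference, quantile normalization gave 4, and so did the fit without the natural arrays of high numbers.

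Over all genes, the minimum change left 195 of 2277 calls for IL-22, 39 of 5183 for GFP-mCherry, 15 of 5371 for mCherry-Fc, 16 of 218 between the synthetic ligands, 134 of 2718 and 121 of 2664 for the differences and 99 of 3034 between lines. Fitting only the groups compared gave 1222 for IL-22, 460 between synthetic ligands and 1722 between lines. Array weights gave 478 between synthetic ligands, and the replicate block gave 100. Quantile normalization gave 3234 for mCherry-Fc. The batch term gave 469 between synthetic ligands and 4153 and 4279 for the differences. Low numbers gave 504, 4583 and 4253 in the same order, and high numbers gave 916 and 872 for the differences and 759 for IL-22. Without the natural arrays of high numbers 1875 remained between lines. Median centring moved the share of calls that were higher from 67.7% to 83.2% for the GFP-mCherry difference and from 65.6% to 82.8% for the mCherry-Fc difference. The cause of these moves was not tested. The block and the batch term could not be fitted between untreated lines, which share no numbers.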
